A study of Homo sapiens with 6 samples.

Results

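The aminoacyl-tRNA synthetases, the enzymes that attach each amino acid to its tRNA, were examined together with a scaffold protein of the complex that holds several of them. Members were taken by gene symbol: every gene named as a synthetase in the cytosolic, mitochondrial or later-numbered series, both subunits of the phenylalanine enzyme, and the scaffold proteins AIMP1, AIMP2 and EEF1E1. The human gene table holds 41 such genes, and 19 of them had a named feature among the 14884 named genes on the array: 17 cytosolic synthetases, TARS3 and AIMP1. The other 22 were not analysed here. They comprise all 17 mitochondrial synthetases, 3 cytosolic synthetase genes and 2 scaffold proteins. No comparison of cytosolic with mitochondrial enzymes could therefore be made.

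The cells were MOLM14, a human leukaemia cell line of the monocytic kind (acute myeloid leukaemia), grown in RPMI medium with serum. In 3 samples they carried siRNA to ATF4 (siATF4) and in 3 a control pool without a target (siCTRL), each at 70 nM by electroporation, with 1 array per sample. The time from transfection to harvest is not given in the sources used here. ATF4 is a transcription factor whose own translation increases when the integrated stress response slows that of most mRNAs. The comparison asks what a smaller amount of ATF4 mRNA does to other transcripts. The samples are called technical replicates in the labels and nothing says that they came from separate cultures, so a p-value here covers the spread among these samples alone, and that spread may be technical.

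Each tRNA must carry the right amino acid before the ribosome can use it. Synthetases fall into 2 classes by the fold of their catalytic domain, and EPRS1 joins an enzyme of each class in one chain. In animal cells several cytosolic synthetases sit with AIMP1, AIMP2 and EEF1E1 in the multi-synthetase complex, while others work free of it. Most mitochondrial enzymes come from separate genes, whereas GARS1 and KARS1 supply both compartments. Many cytosolic synthetase genes are known targets of ATF4, which pairs with C/EBP proteins on a composite DNA element.

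The composite element was searched as TGATGNAA, or TTNCATCA on the opposite strand, in windows running from 250 bases before to 50 after the gene start (RefSeq, GRCh38.p14). Of the 19 members 15 had a window in the table, and 6 of those 15 (40.0%) held the element, against 3.67% of 27305 promoters of the same length and 2.53% of the 15843 that belong to protein-coding genes. The 6 matches are shown because each carries the same 8 letters, with C at the open position. They are written 5′ to 3′ on the gene's strand, the match in capitals.
AARS1: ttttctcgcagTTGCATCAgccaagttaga
MARS1: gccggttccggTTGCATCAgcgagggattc
TARS1: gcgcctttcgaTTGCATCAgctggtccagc
CARS1: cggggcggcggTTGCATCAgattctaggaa
IARS1: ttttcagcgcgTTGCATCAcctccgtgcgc
NARS1: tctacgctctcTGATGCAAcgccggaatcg

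The stretches lie at chr16:70289675-70289704 (AARS1, minus strand), chr12:57488053-57488082 (MARS1, plus strand), chr5:33440956-33440985 (TARS1, plus strand), chr11:3057407-3057436 (CARS1, minus strand), chr9:92293692-92293721 (IARS1, minus strand) and chr18:57621804-57621833 (NARS1, minus strand). Counted along the gene from its start, the match began at -187 in AARS1, -13 in IARS1, -4 in MARS1, -2 in CARS1, 3 in TARS1 and 15 in NARS1. The start used by the TARS1 window lies 269 bases inside the annotated gene, so a window at the gene's own 5′ end would not reach that match. For the other members with a window the start and the gene's 5′ end coincide. NARS1 was the 1 gene of the 6 with the element in the other orientation. With C fixed, the element stood in 0.923% of all 27305 promoters. The cAMP response element TGACGTCA, which reads the same on both strands, was in 0 of the 15 members' windows and in 1.98% of all promoters. A match of letters is a description of the window and not evidence of binding.

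Levels are log2 values. Each difference is the siATF4 mean minus the siCTRL mean, in log2 units, with its standard error (SE) from limma. ATF4 itself, the targeted gene, read 7.72, 7.88 and 8.14 with siATF4, against 8.67, 8.64 and 8.85 with siCTRL. Every siATF4 array lay below every siCTRL array, and the difference of -0.80 (SE 0.14) left 57.4% of the control level. ATF4 mRNA was thus reduced in part, and its protein was not measured here. In RNA from whole cultures, fewer cells with a transcript and less of it per cell cannot be told apart.

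Transcripts of 14 of the 17 cytosolic synthetases had a lower mean with siATF4, and in 7 of them no siATF4 array reached the lowest siCTRL array: AARS1, MARS1, WARS1, TARS1, GARS1, EPRS1 and IARS1. Over all named genes 46.2% had a lower mean, and in 2.59% the siATF4 arrays lay wholly below the siCTRL arrays. None of the 17 lay wholly above, where 3.30% of all genes did. The median difference of the 17 was -0.36, beside 0.01 over all named genes. The 19 members had a median level of 8.20 to 8.65 by array, against 4.44 to 4.47 for all named genes. The shares and medians over all genes are thus not matched for level. No member passed limma's test after adjustment over all genes, where 0% of genes were called, and each member had an adjusted p of 1.00. At an unadjusted p below 0.05 there were 7 of 19 members, against 1.46% of all genes. They are the same 7 genes as those without overlap. With single arrays left out this count ran from 4 to 8. It was 4 without siATF4 replicate 1 (197 of all 14884 genes) and without siCTRL replicate 3 (377 of 14884), and 8 without siCTRL replicate 2 (152 of 14884).

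**Figure D1:**
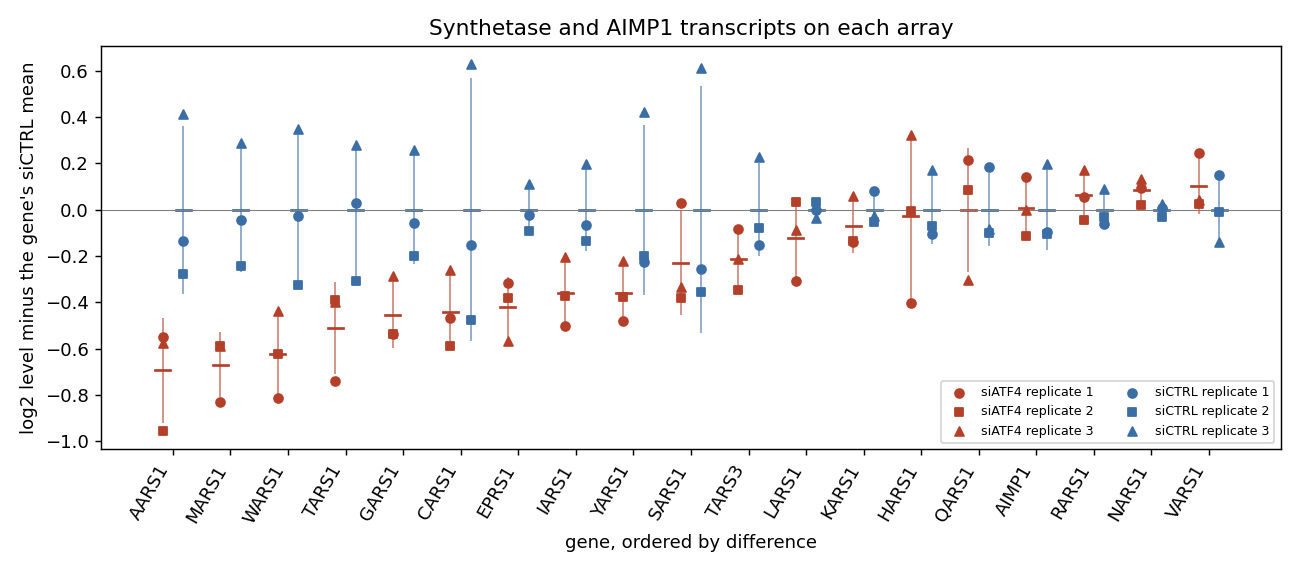
Log2 level of each of the 19 genes on each array, minus that gene's siCTRL mean. Red points on the left of each gene are siATF4 arrays, blue points on the right are siCTRL arrays, the marker shape gives the replicate number, and bars give the mean and SD of 3 arrays. The red points of 7 genes, AARS1, MARS1, WARS1, TARS1, GARS1, EPRS1 and IARS1, lie wholly below the blue ones, and the triangle of siCTRL replicate 3 is the highest point for 12 of 19 genes.

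The alanine enzyme AARS1 had the largest difference. It read 9.04, 8.63 and 9.01 with siATF4, against 9.45, 9.31 and 10.00 with siCTRL. The groups did not overlap, and the difference was -0.69 (SE 0.21, 95% interval -1.20 to -0.19), or 61.9% of the control level. MARS1, the methionine enzyme and a member of the complex, read 7.78, 8.02 and 8.02 with siATF4, against 8.56, 8.36 and 8.90 with siCTRL. Its difference of -0.67 (SE 0.16, 95% interval -1.06 to -0.28) left 62.9% of the control level (unadjusted p 0.00492 by limma). Both genes carry the promoter element shown above.

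TARS1, the main cytosolic threonine enzyme, read 8.20, 8.55 and 8.54 with siATF4, against 8.97, 8.63 and 9.22 with siCTRL. The siATF4 replicate 2 array came close to siCTRL replicate 2, with a gap of -0.08, while the arrays of numbers 1 and 3 differed by -0.77 and -0.68. GARS1, the glycine enzyme, read 7.79, 7.79 and 8.04 with siATF4, against 8.27, 8.13 and 8.59 with siCTRL. Its gaps by replicate number were more even, at -0.48, -0.34 and -0.54. The differences were -0.51 (SE 0.18) for TARS1 and -0.45 (SE 0.15) for GARS1, which has no match to the element in its window.

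EPRS1, the bifunctional glutamate and proline enzyme of the complex, read 9.73, 9.67 and 9.48 with siATF4, against 10.02, 9.95 and 10.16 with siCTRL. Its spread was small in both groups, with an SD of 0.13 for siATF4 and 0.10 for siCTRL (n = 3 each), and the difference was -0.42 (SE 0.12). IARS1, the isoleucine enzyme of the complex, read 9.00, 9.13 and 9.30 with siATF4, against 9.44, 9.37 and 9.70 with siCTRL. The groups were separated by less than 0.1 between the highest siATF4 and the lowest siCTRL array, and the difference was -0.36 (SE 0.14).

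WARS1, the tryptophan enzyme and a known interferon-inducible gene, read 6.89, 7.08 and 7.27 with siATF4, against 7.68, 7.38 and 8.05 with siCTRL. The groups did not overlap, and the difference was -0.62 (SE 0.20), or 64.9% of the control level. WARS1 has 2 named features, and the dimmer one, not used for the values above, gave -0.19 (SE 0.19) with overlapping groups. Taking the mean of both features left 6 cytosolic synthetases without overlap in place of 7. Of 25 interferon-stimulated genes listed for comparison 13 were measured, and 12 of those 13 had a lower mean with siATF4. Their median level was 4.24, 5.39 and 4.18 on siATF4 replicates 1, 2 and 3, against 6.30, 5.08 and 4.20 on siCTRL replicates 1, 2 and 3. For numbers 1, 2 and 3 the median gap of the interferon genes was -1.96, 0.19 and 0.11, and that of WARS1 was -0.79, -0.30 and -0.79. The part of interferon signalling in the WARS1 difference was not tested.

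For these 7 genes the two-sided exact permutation test gave p = 0.1, the smallest that 3 arrays against 3 can give, as it also did for ATF4. Any gene without overlap gives this value, so it adds nothing to the lack of overlap by which the 7 were picked.

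CARS1, the cysteine enzyme, and YARS1, the tyrosine enzyme, were lower in every replicate number with overlapping groups. CARS1 read 6.02, 5.90 and 6.23 with siATF4, against 6.34, 6.01 and 7.12 with siCTRL, so that siCTRL replicate 2 lay below 2 of the siATF4 arrays. YARS1 read 7.02, 7.12 and 7.28 with siATF4, against 7.27, 7.30 and 7.92 with siCTRL, where the overlap was a matter of less than 0.01. The differences were -0.44 (SE 0.28) for CARS1 and -0.36 (SE 0.20) for YARS1. In both genes siCTRL replicate 3 stood well above its group, and without that array the values were -0.13 and -0.15. The serine enzyme SARS1 went further, with 6.98, 6.57 and 6.62 on siATF4 arrays, against 6.70, 6.60 and 7.56 on siCTRL arrays. Its difference of -0.23 (SE 0.27) turned to 0.08 without siCTRL replicate 3.

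The remaining cytosolic synthetases differed by between -0.12 and 0.10. LARS1, the leucine enzyme that is also known as a leucine sensor upstream of mTORC1, was at -0.12 (95% interval -0.41 to 0.17). The lysine enzyme KARS1 was at -0.07, the histidine enzyme HARS1 at -0.03 and the glutamine enzyme QARS1 at 0.00. The arginine enzyme RARS1 was at 0.06. NARS1, the asparagine enzyme, read 10.01, 9.94 and 10.05 with siATF4, against 9.92, 9.88 and 9.94 with siCTRL, a difference of 0.08 (95% interval -0.15 to 0.31). NARS1 holds the promoter element. It was not tested against the other genes with the element. VARS1, the valine enzyme, was at 0.10 (95% interval -0.19 to 0.40) by its brighter feature and at 0.02 by the other.

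TARS3, a second gene for a threonine enzyme whose product resembles TARS1, was measured at 4.97, 4.70 and 4.84 with siATF4, against 4.90, 4.97 and 5.28 with siCTRL, a difference of -0.21 (SE 0.14), or -0.10 without siCTRL replicate 3. These readings lie near the median of all named genes on the same arrays, which ran from 4.44 to 4.47. Signal over background was not analysed here. AIMP1, which holds part of the complex together and is also known as a secreted cytokine precursor, read 8.57, 8.31 and 8.42 with siATF4, against 8.33, 8.32 and 8.62 with siCTRL. The groups overlapped fully and the difference was 0.01 (95% interval -0.31 to 0.33).

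The cytosolic synthetases are next described by complex membership. Of the 7 measured enzymes of the multi-synthetase complex 6 had a lower mean, 3 of them without overlap (MARS1, EPRS1 and IARS1), with a median difference of -0.12. All named genes gave the 46.2% lower and 2.59% wholly below stated above, which also stand beside the counts that follow. Of the 10 enzymes outside it 8 had a lower mean, 4 without overlap (AARS1, WARS1, TARS1 and GARS1), with a median of -0.40. Without siCTRL replicate 3 both medians were -0.14. The 4 other complex enzymes, LARS1, KARS1, QARS1 and RARS1, and the scaffold AIMP1 lay between -0.12 and 0.06. The members of the complex were not tested against each other.

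**Figure D2:**
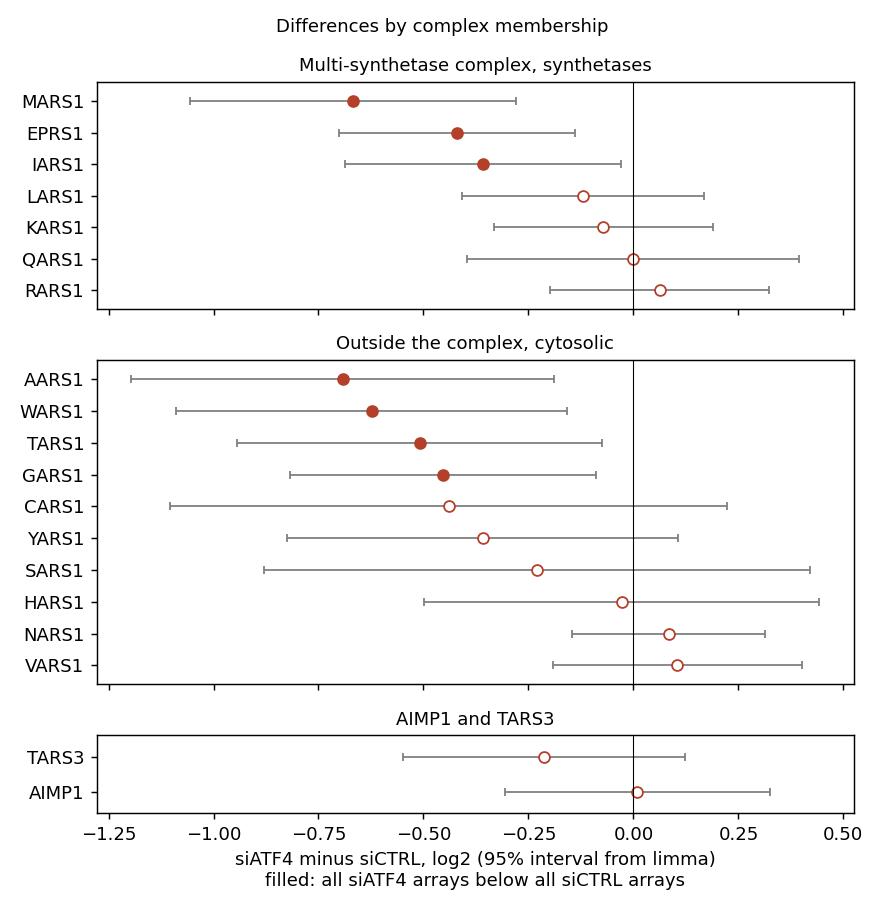
Difference of each gene, siATF4 minus siCTRL on the log2 scale, with its 95% interval from limma, for complex synthetases (top), other cytosolic synthetases (middle) and AIMP1 with TARS3 (bottom). Filled points are the 7 genes whose siATF4 arrays lie wholly below the siCTRL arrays, 3 in the top panel and 4 in the middle one.

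By catalytic class, 7 of 9 class I enzymes and 6 of 7 class II enzymes had a lower mean, with 3 genes without overlap in each class. The median difference was -0.36 in class I and -0.23 in class II, and EPRS1, which belongs to both, was left out of this count. Without siCTRL replicate 3 these medians were -0.14 and -0.09, with 4 of 7 class II enzymes lower. By promoter, the 6 genes with the element, all synthetases, had a median difference of -0.47 and 4 without overlap. The 9 with a window but no match include the scaffold AIMP1, at 0.01. Those 9 had a median of -0.07 and 3 without overlap (WARS1, GARS1 and EPRS1). Their median without AIMP1 was not computed. Of the 10749 named genes with a window 2.37% lay wholly below. Without siCTRL replicate 3 the medians were -0.31 with the element and -0.04 without it. These medians were not tested against each other.

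**Figure D3:**
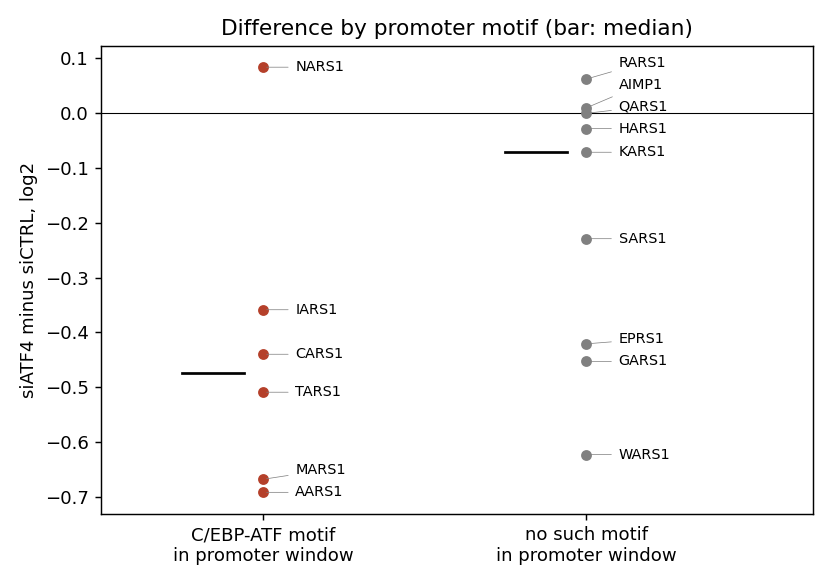
Difference of each of the 15 genes with a promoter window, siATF4 minus siCTRL on the log2 scale, by whether the window holds the C/EBP-ATF element. Bars are medians, -0.47 with the element and -0.07 without it, where the scaffold AIMP1 is included. NARS1, at 0.08, is the 1 gene with the element above 0, and WARS1, GARS1 and EPRS1 lie below -0.4 without it.

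Replicate numbers were not alike, and the labels state no pairing of the arrays by number. Of the 17 cytosolic genes 10 were lower in siATF4 than in siCTRL in every number, against 9.20% of all named genes, and 2 (NARS1 and VARS1) were higher in every number, against 14.4%. The median gap of the 17 came to -0.30 in number 1, -0.08 in number 2 and -0.54 in number 3, where the medians over all named genes lay between 0.01 and 0.02. AARS1 was the gene with the largest gap in number 2, at -0.68. With the replicate number as a block in limma, 9 of 19 members lay under the unadjusted level of 0.05, against 3.12% of all genes, with CARS1 and YARS1 added to the 7. With the block and without number 3, a choice made after seeing the data, 4 of 19 members did, against 529 of 14884 genes. No gene was called after adjustment in these fits either (0% of all genes).

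**Figure D4:**
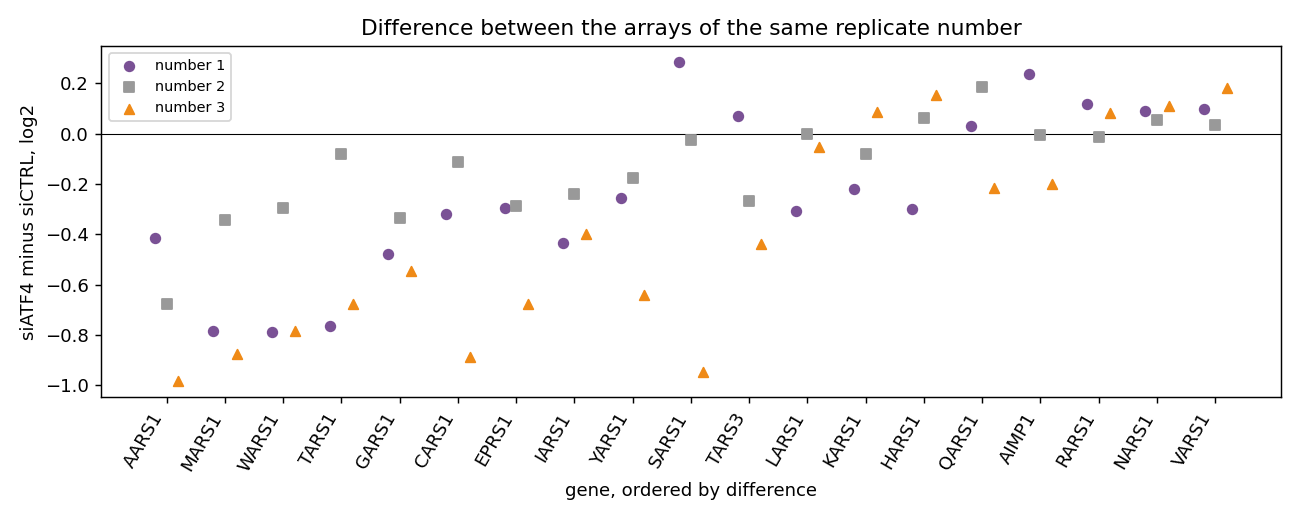
Gap between the siATF4 and the siCTRL array of the same replicate number for each gene, on the log2 scale, with circles, squares and triangles for numbers 1, 2 and 3. For 10 cytosolic genes all 3 markers lie below 0. The squares of number 2 lie closest to 0 for most of them, with a median of -0.08 over the cytosolic genes.

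The size of the differences rested in part on siCTRL replicate 3, which was the highest of the 6 arrays for 12 of 19 members, against 17.0% of all named genes. Without that array the median difference of the 17 cytosolic genes was -0.14, and the 7 genes without overlap were at values from -0.52 (MARS1) to -0.26 (IARS1). Leaving out a control array cannot remove a gene from the 7, and no further cytosolic gene lay wholly below then, where 7.57% of all genes did. NARS1 lay wholly above, at 0.10. Without both arrays of number 3, a choice made after seeing the data, the median was -0.22. Then 9 cytosolic genes lay wholly below, against 13.9% of all genes, and 1 lay wholly above. The share of all genes wholly above was 3.30% over all 6 arrays and was not computed for these settings. It cannot fall when arrays are left out.

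**Figure D5:**
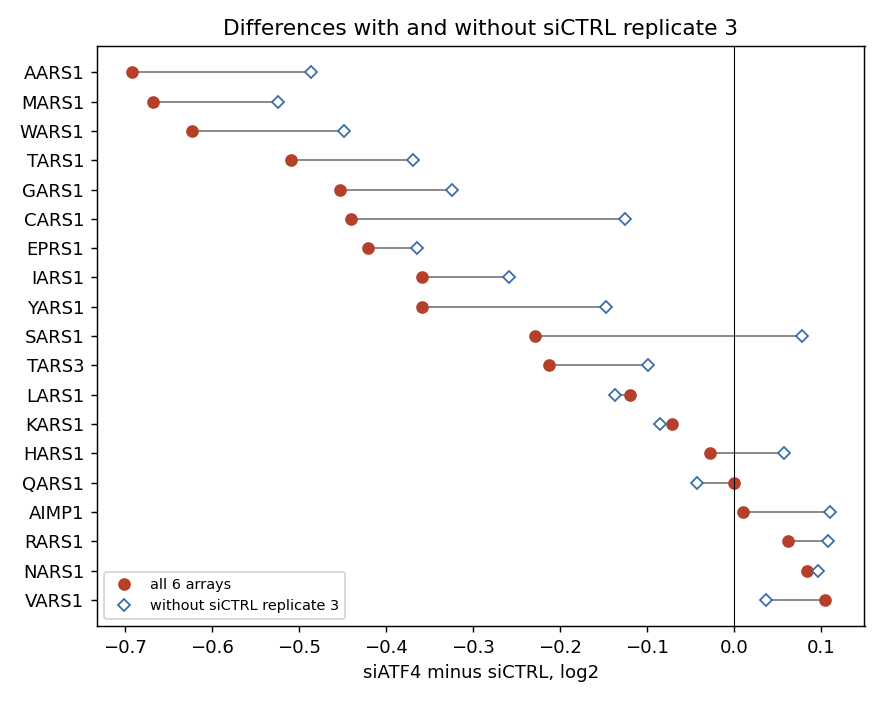
Difference of each gene on the log2 scale, siATF4 minus siCTRL, with all 6 arrays (filled circles) and without siCTRL replicate 3 (open diamonds). AARS1 is at -0.69 with and -0.49 without that array, and CARS1 at -0.44 and -0.13, while SARS1 and HARS1 cross 0 and EPRS1 stays between -0.42 and -0.36.

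Myeloid markers of the line also varied between arrays. Of 9 measured, 7 (LYZ, CSF1R, FLT3, MPO, SPI1, CD68 and MEIS1) lay above the median of all named genes on all 6 arrays, CSF3R did so on 5, and CD14 lay below it on all 6. The arrays of number 3 had the lowest LYZ levels, 8.33 with siATF4 and 8.51 with siCTRL, where the other arrays read 10.4 to 10.9. MPO read 5.58 on siATF4 replicate 1, against 9.11 on siCTRL replicate 1, and 8.45 to 10.4 on the other siATF4 arrays. Of 21 markers listed for other cell types 9 were measured. The T cell genes CD2, CD5 and CD8A, the erythroid KLF1 and the epithelial EPCAM lay below that median on all arrays, the erythroid EPOR lay above it on all 6 and the epithelial KRT8 on 3. The B cell factor PAX5 read 3.76, 6.05 and 5.28 with siATF4, against 6.12, 5.70 and 5.43 with siCTRL, and the keratin KRT18 read 6.11 to 7.14 with siATF4, against 6.87 to 7.40 with siCTRL. The part of these shifts in the synthetase differences was not tested.

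Genes for other steps that make or mature tRNA had medians near the 0.01 of all named genes. Genes for other routes to charged tRNA, such as the selenocysteine pathway and the removal of wrong amino acids, split evenly, with 4 lower and 4 higher of 8 measured and a median of 0.02. SEPSECS, which completes selenocysteinyl-tRNA, was at 0.32 (SE 0.20), and PSTK, the kinase before it, was at -0.24 (SE 0.16). Without siATF4 replicate 1 they were at 0.15 and -0.09. Of 32 measured tRNA-modifying enzymes 14 were lower and 18 higher, with a median of 0.02. In that list 2 lay wholly below the controls, the pseudouridine synthase PUS1 at -0.41 (SE 0.18) and the dihydrouridine synthase DUS3L at -0.14 (SE 0.10). The methyltransferases FTSJ1 at 0.25 (SE 0.13) and TRMT61A at 0.24 (SE 0.14) lay wholly above. These counts, 2 below and 2 above of 32, stand beside 2.59% below and 3.30% above over all named genes. PUS1 was at -0.24 without siATF4 replicate 1, FTSJ1 at 0.16 without siATF4 replicate 3 and TRMT61A at 0.11 without siCTRL replicate 2. Of 20 genes for tRNA synthesis, processing and export 8 were lower and 12 higher, with a median of 0.05, and the RNA polymerase III subunit POLR3E at 0.17 (SE 0.10) was the 1 without overlap, where 3.30% of all genes lay wholly above. None of these genes was called by limma after adjustment.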

How the data were processed

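Per the labels' protocols, 100 ng of total RNA per sample was reverse transcribed, labelled with biotin and put on Affymetrix arrays that cover whole transcripts. The deposited values were read as log2 from their range (1.91 to 14.2). Per the submitters' processing notes the tool was Partek. Version, log base, normalization and background correction are not given in the sources used here. Array medians lay between 3.88 and 3.96, so the authors' values were taken as normalized between arrays, and 0 columns had no sample. Signal over background was not analysed here, and the number of arrays limits the precision (median SE of a gene's difference 0.15).

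The table has 53617 features, of which 16098 carry 1 gene symbol, 0 carry more and 37519 are without a name here. Each of the 16098 identifiers was found in the gene table of GRCh38.p14, and 0 symbols changed. The brightest feature stood for each of 779 genes with several. The fit over all 14884 genes used R 4.3.3 and limma 3.58.1 (lmFit, eBayes, group as the only term, Benjamini-Hochberg over all genes, threshold 0.05). Single values also had the two-sided exact permutation test.

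Every member with a named feature was named. Those without overlap and the largest differences were given with the value on each array. CARS1, YARS1, SARS1, NARS1 and TARS3 were so treated after their values were seen. Of other lists the members without overlap, or else the 2 largest, were given by their difference and SE. The interferon list was given by its counts and medians, with no gene of it named. The members and lists were chosen with earlier results of these data known.

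Replicate numbers 1 to 3 appear in both groups. Deviations from the group means correlated across genes at r = 0.20, 0.40 and 0.62 for the same numbers, all over the limit of 0.1, while siATF4 replicate 2 correlated with siCTRL replicate 1 at 0.48. Over the 19 members alone the same-number values were 0.0088, 0.26 and 0.32, against 0.47 for that crossed pair. The labels do not state a pairing, and the data do not tie each array to its own number alone. Alternatives were the replicate block, a gene's mean over its features, equal medians, quantile normalization, array weights, a variance trend with robust prior, dropping the dimmest 33% of genes, all features, and leaving out each array. Promoter windows came from RefSeq.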

Additional observations from a re-analysis of the deposited data

How the results depend on the processing

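No gene was called by limma under any alternative run, all features and each array left out included (0 each, with 121 to 529 genes at an unadjusted p below 0.05). With single arrays left out the median cytosolic difference was -0.43 to -0.14, with the -0.14 coming without siCTRL replicate 3. It was -0.35 with quantile normalization, -0.34 with equal medians and -0.24 with array weights. The count of cytosolic genes wholly below was 6 to 9, and leaving out arrays cannot lower it. The share of all genes wholly below was 2.05% with equal medians and 2.68% with quantile normalization. It was 7.57% without siCTRL replicate 3 and 13.9% without both arrays of number 3. The replicate block left the cytosolic median at -0.36 and changed no call. Genes close to 0 turned sign: AIMP1 at -0.0062 with quantile normalization and -0.057 to 0.11 with single arrays left out, QARS1 at 0.0135 with equal medians and -0.11 to 0.15, and HARS1 at 0.0605 with array weights and -0.20 to 0.16. SARS1, at -0.23 with all 6 arrays, ran from -0.41 to 0.077 with single arrays left out. Its 0.077 came without siCTRL replicate 3. Without both arrays of number 3, with or without the block, QARS1 was at 0.11 and SARS1 at 0.13. The causes were not tested. Mitochondrial medians and partner differences were not run, since no mitochondrial member had a named feature, and AIMP1 alone stood for the scaffold.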

Other observations

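The promoter element TGATGCAA also occurs in genes outside the synthetases. Among the named genes with a promoter window, 64 others held it (either strand), and 32 of these had a lower and 32 a higher mean with siATF4, with a median difference of 0.00. In 0 of the 64 did the siATF4 arrays lie wholly below the siCTRL arrays, where 2.37% of the 10749 named genes with a window did, and 1, TIMM22, lay wholly above at 0.44 (SE 0.16). For the 6 synthetases with the element the count was 4 below and the median -0.47. With any base at the open position, 235 others held the element, 103 lower and 132 higher, with a median of 0.02. Of these, 5 (2.13%) lay wholly below and 11 (4.68%) wholly above. Of the 10749 named genes with a window, 2.37% lay wholly below and 3.58% wholly above. The list with C fixed was chosen after seeing the data, and neither list was tested.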
